A study of Mus musculus with 9 samples.

Results

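Eukaryotic translation initiation factors bring the ribosome to the start codon of a messenger RNA, and the 49 of their genes described here were chosen by symbol among the 24454 genes counted in 2-cell mouse embryos. They comprise the symbols that start with Eif2, Eif3, Eif4, Eif5 or Eif6 together with Eif1, Eif1b and Eif1ax. The 4 Eif2ak kinase genes, which act on eIF2, were left out, as was any symbol that ends in -ps and a number. All 49 had enough counts to be tested. RNA of ICR embryos, an outbred mouse stock, was sequenced in 9 libraries of 3 pooled embryos, which had been cultured in vitro to the 2-cell stage. The labels name no agent for the 3 control libraries, a high glucose load for 3 libraries (glucose alone), and for the last 3 the same load plus rat serum termed ZGW (added serum, or the serum group). They give neither the glucose dose nor the nature of ZGW, and leave unsaid if serum without ZGW was given to the other groups, so effects of ZGW and of serum cannot be told apart. No label ties the pools to matings or to culture batches, and p-values here cover the variation among these pools only, which may in part be technical.

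In the cytoplasm, eIF2 carries the initiator transfer RNA to the small ribosomal subunit, eIF2B recharges eIF2 with GTP, and eIF1, eIF1A, eIF3 and eIF5 hold the small subunit while it scans for the start codon. The eIF4F complex, made of the cap-binding protein eIF4E, the scaffold eIF4G and the helicase eIF4A, recruits the messenger RNA, and eIF4E-binding proteins block it. Phosphorylation of the eIF2 alpha subunit in stress, and of the eIF4E-binding proteins by the kinase mTOR, are the main switches of initiation. The oocyte stores messenger RNA and translates it on schedule, and at the 2-cell stage the mouse embryo loses that store while its own genome becomes active.

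Library totals ran from 11934924 to 16916343 counts. Levels are given in CPM, counts scaled to the library total and to edgeR's TMM factor. The initiation factor genes held 0.856% ± 0.0621 of the counts in control, 0.846% ± 0.0597 with glucose alone and 0.748% ± 0.0705 with added serum (SD, n = 3). By library these shares were 0.903%, 0.879% and 0.785% in control, 0.899%, 0.858% and 0.782% with glucose alone, and 0.825%, 0.731% and 0.687% with added serum, so the groups overlapped. Eif1 held 24.9% of all the counts in these genes, and the first 6 genes (Eif1, Eif4g2, Eif4e, Eif2s2, Eif3i and Eif5) held 65.3%.

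Subunits of one complex differed widely in messenger RNA, which was compared per kilobase of the longest coding transcript in the control libraries (mean ± SD, n = 3). Eif1, whose protein guards the accuracy of start codon choice, was the most abundant at 1737 ± 428 CPM per kb. Of the 3 subunits of eIF2, the beta subunit gene Eif2s2 was at 309.6 ± 49.1, the alpha subunit gene Eif2s1 at 39.8 ± 4.66 and the X-linked gamma subunit gene Eif2s3x at 12.9 ± 3.46 CPM per kb. In eIF2B, the alpha subunit gene Eif2b1 was at 114 ± 11.8 CPM per kb and the 4 other genes lay between 1.75 (Eif2b3) and 6.64 (Eif2b4). The eIF3 genes ran from 3.43 ± 4.5 CPM per kb for Eif3d to 477 ± 138 for Eif3i, which encodes a small WD-repeat subunit. Among the cap-binding proteins, Eif4e was at 169 ± 16.6, Eif4e3 at 50.4 ± 10.8, the oocyte-type paralogue Eif4e1b at 24 ± 7.4 and Eif4e2 at 11.8 ± 6.3 CPM per kb. Eif4g2, which encodes a scaffold without the eIF4E-binding part, stood at 118 ± 4.17 CPM per kb, against 2.13 ± 0.959 for the classical scaffold gene Eif4g1 and 1.48 ± 0.834 for Eif4g3. Reads of a gene and of its near copies may be divided or shared: 15 of the 49 genes have more than 10% of their transcript stretches of 50 bases in transcripts of other genes. These include Eif1 (21.4%), Eif2s2 (21.9%), Eif2s3x (35.5%), Eif3h (26.2%) and Eif4a1 (65.3%). The 9 counts of Eif3j1 and Eif3j2 are identical, so that these genes were not separated. Their 1 signal enters the counts and medians of the 49 genes and of the eIF3 genes as 2 genes.

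**Figure D1:**
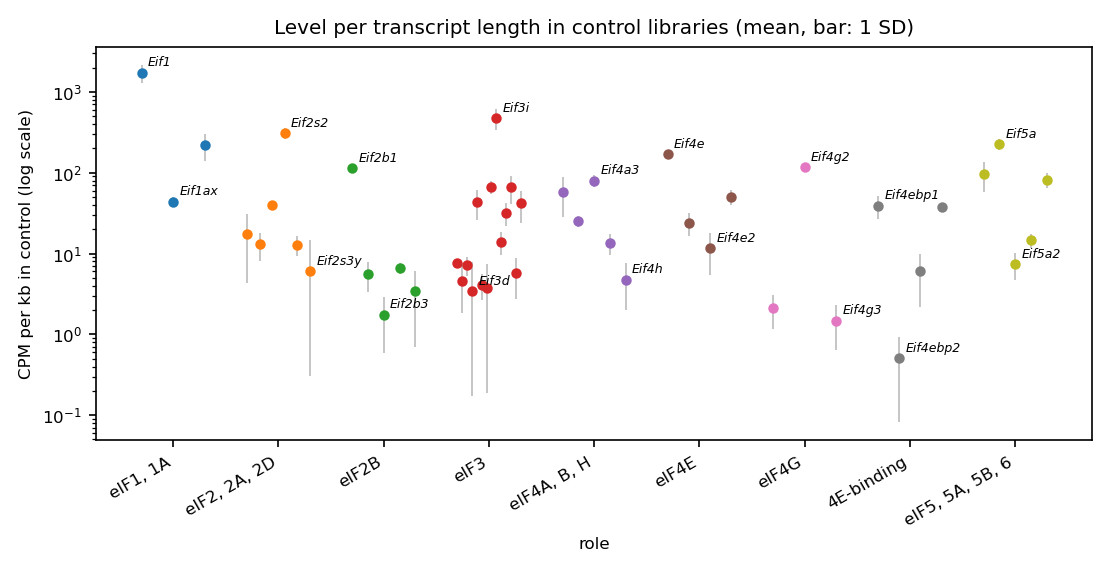
Level of each initiation factor gene per kilobase in the control libraries (vertical log axis, CPM per kb), by role (horizontal axis). Points are means and bars 1 SD over 3 libraries, with lower bars shortened where they would reach 0. The highest and lowest gene of each role is named, and Eif1 stands highest at 1737 CPM per kb.

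The promoter windows of 38 of the 49 genes were in the RefSeq table of GRCm38.p6 (the assembly that mm10 names), in 50 windows that run from 250 bases before to 50 bases after a transcript start. The E-box CACGTG, the motif of Myc and its relatives, occurred in the windows of 10 of the 38 genes (26.3%), beside 10.5% of the 12299 tested genes with a window. The ETS motif CCGGAAG occurred in 14 of 38 (36.8%), beside 16.3%. The windows of these genes had a median GC content of 62.7%, beside 59% for the tested genes, and the part of base content in these shares was not tested. Of the other motifs searched, the CCAAT box was in 13 of 38 genes (34.2%, beside 43.1%), the TATA box TATAAA in 4 (10.5%, beside 10.7%) and the ATF4 element TGATGNAAN in 1 (2.63%, beside 3.35%). The NRF1 core and a YY1 motif were each in 1 (2.63%, beside 1.9% for each). Both strands were read, none of the motifs contains another, and the motifs were chosen with the expression results known. Shown are the 250 bases before the start, on the plus strand of GRCm38.p6, for 3 of the 4 genes whose serum libraries were all below the 6 others, because these genes carry the results below (the fourth, Eif3h, had no window). Capitals mark motif matches.
Eif2s1, chr12:78861822-78862071: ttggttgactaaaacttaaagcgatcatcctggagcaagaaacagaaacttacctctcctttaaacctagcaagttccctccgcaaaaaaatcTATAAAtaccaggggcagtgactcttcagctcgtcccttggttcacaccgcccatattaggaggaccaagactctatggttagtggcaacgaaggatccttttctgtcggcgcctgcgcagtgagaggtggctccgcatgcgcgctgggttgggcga
Eif4e, downstream start, chr3:138527018-138527267: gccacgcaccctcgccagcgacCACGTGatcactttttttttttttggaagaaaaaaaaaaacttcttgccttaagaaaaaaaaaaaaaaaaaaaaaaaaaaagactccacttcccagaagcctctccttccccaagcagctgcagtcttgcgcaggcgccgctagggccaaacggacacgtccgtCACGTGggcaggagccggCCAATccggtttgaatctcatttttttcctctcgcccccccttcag
Eif5a2, chr3:28781027-28781276: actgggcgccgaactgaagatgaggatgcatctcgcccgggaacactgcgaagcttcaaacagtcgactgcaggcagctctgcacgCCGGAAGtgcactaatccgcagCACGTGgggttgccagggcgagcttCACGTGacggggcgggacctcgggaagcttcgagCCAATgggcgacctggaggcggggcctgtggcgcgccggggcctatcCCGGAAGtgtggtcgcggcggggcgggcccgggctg
The windows shown for Eif4e and Eif5a2 each have 2 E-boxes and a CCAAT box, and that of Eif5a2 has 2 ETS motifs as well. The 250 bases before the upstream start of Eif4e (chr3:138525941-138526190) are not shown and had 0 matches. Windows with at least 2 E-boxes made up 0.948% of the 15297 windows of tested genes, and 3 of the 50 windows of initiation factor genes, those of Eif4e, Eif4g1 and Eif5a2. In the Eif2s1 window the only match was a TATAAA far upstream of the RefSeq start. The GENCODE gene begins before this window, at chr12:78861819, so by that annotation the window and its TATAAA lie inside the gene. A match describes letters and does not show a bound site.

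High glucose was compared with control to ask what glucose loading changed. Levels of the initiation factor genes were divided evenly, with 25 of 49 higher and 24 lower with glucose alone and a median log2 fold change of 0.00, beside -0.02 over the 16964 genes tested. The gene for the translational repressor 4E-BP1, Eif4ebp1, was lower in all 3 glucose libraries, and Eif4e3 and Eif4b were higher in all 3. No initiation factor gene passed the edgeR quasi-likelihood test (Benjamini-Hochberg adjusted p over all genes) (0 of 49, beside 0% of all genes tested), and DESeq2 and limma-voom called 0 of 49 as well, where DESeq2 called 0.76% of all genes. At an unadjusted edgeR p under 0.05 there were 4 of 49 (8.16%), beside 7.39% of all genes. Of the 4, 2 were lower and 2 were higher, beside 3.5% and 3.88% of all genes. Libraries of the groups were fully apart for 5 genes that were higher (10.2%, beside 6.84% of all genes) and 5 that were lower (10.2%, beside 6.91%). These shares were near the background.

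Among regulators of cap binding, Eif4ebp1 was at 98, 86.6 and 50.3 CPM in control libraries 1 to 3, 31, 17.6 and 42.2 CPM in those given glucose alone and 35.8, 37.7 and 35.1 CPM in those also given serum. Each control library was above each of the 6 glucose-loaded ones, a pattern of 4 of the 49 genes (Eif2b4, Eif2s1, Eif2s2 and Eif4ebp1) and of 2.05% of all tested genes. Its log2 fold change was -1.37 ± 0.39 (SE) for high glucose against control and -1.11 ± 0.39 for added serum against control (edgeR adjusted p = 0.627 and 0.434). The gene lies at chr8:27260329-27276674 (GRCm38). Its relatives Eif4ebp2 and Eif4ebp3 were scarce, at 2.95 ± 2.48 CPM and 4.51 ± 2.9 CPM in control (SD, n = 3). Eif4ebp2 was at 2.18, 5.73 and 0.949 CPM in control libraries 1 to 3, 0.529, 1.54 and 3.75 CPM in those given glucose alone and 6.93, 7.64 and 2.31 CPM in those also given serum. These groups overlapped, and the log2 fold change of Eif4ebp2 for added serum against glucose alone was 1.54 ± 1.00 (edgeR adjusted p = 0.706). Eif4enif1, the carrier that takes eIF4E into the nucleus and represses stored messenger RNA in oocytes, was at 139.9 ± 16.1 CPM in control, 169.7 ± 43.7 CPM with glucose alone and 196 ± 57.2 CPM with added serum. By library it was at 128, 134 and 158 CPM in control, 143, 146 and 220.1 CPM with glucose alone and 188, 143 and 257 CPM with added serum. The groups overlapped, with a log2 fold change of 0.49 ± 0.29 for added serum against control (edgeR adjusted p = 0.608).

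Of the cap-binding proteins themselves, Eif4e3 was at 104, 157 and 119 CPM in control libraries 1 to 3, 229, 189 and 264 CPM in those given glucose alone and 172, 209 and 196 CPM in those also given serum. The control libraries were the 3 lowest of the 9, a pattern that 1.97% of all tested genes also had. For Eif4e3 the log2 fold change was 0.84 ± 0.25 for high glucose and 0.60 ± 0.25 for added serum, both against control (edgeR adjusted p = 0.627 and 0.483), and 12.3% of the transcript stretches of Eif4e3 occur in other genes' transcripts. Eif4e1b was at 53.4, 65.7 and 34.4 CPM in control libraries 1 to 3, 95.7, 39.4 and 74.9 CPM in those given glucose alone and 41.6, 42.6 and 90.7 CPM in those also given serum. The 3 groups overlapped, and the log2 fold change for high glucose was 0.45 ± 0.44 (edgeR adjusted p = 0.872). Eif4b was at 43.5, 42.4 and 68.7 CPM in control libraries 1 to 3, 80.5, 96.2 and 102 CPM in those given glucose alone and 58.7, 74.9 and 113 CPM in those also given serum. Eif4b encodes a cofactor of the helicase eIF4A. Its glucose libraries were above the control ones, with a log2 fold change of 0.85 ± 0.33 (edgeR adjusted p = 0.635), while the serum libraries overlapped both other groups (0.67 ± 0.33 against control, edgeR adjusted p = 0.534).

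The guanine nucleotide exchange factor eIF2B showed no common direction with glucose alone, with 2 of its 5 genes higher and 3 lower. Eif2b3 was at 3.93, 11.6 and 4.16 CPM in control libraries 1 to 3, 12.7, 21.1 and 9.44 CPM in those given glucose alone and 15.9, 14.4 and 19 CPM in those also given serum. Control replicate 2 overlapped the libraries with glucose alone, and the log2 fold change of Eif2b3 was 1.13 ± 0.60 for high glucose and 1.32 ± 0.60 for added serum against control (edgeR adjusted p = 0.723 and 0.506). Eif2b4 was at 11.8, 12.7 and 15.9 CPM in control libraries 1 to 3, 4.76, 6.61 and 1.71 CPM in those given glucose alone and 7.17, 4.46 and 6.65 CPM in those also given serum. Its control libraries were above all others, as for Eif4ebp1, at a level that gave few counts, and Eif2b4 was added here after its values were seen. For Eif2b4 the log2 fold change was -1.62 ± 0.66 for high glucose (edgeR adjusted p = 0.652). In the eIF3 complex, 9 of 14 genes were higher and 5 lower. Eif3b was at 7.43, 10.3 and 22.3 CPM in control libraries 1 to 3, 15.3, 25 and 35.7 CPM in those given glucose alone and 16.2, 22 and 19.2 CPM in those also given serum. The groups overlapped, and the log2 fold change of Eif3b, a core scaffold subunit, was 0.93 ± 0.53 for high glucose (edgeR adjusted p = 0.743).

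**Figure D2:**
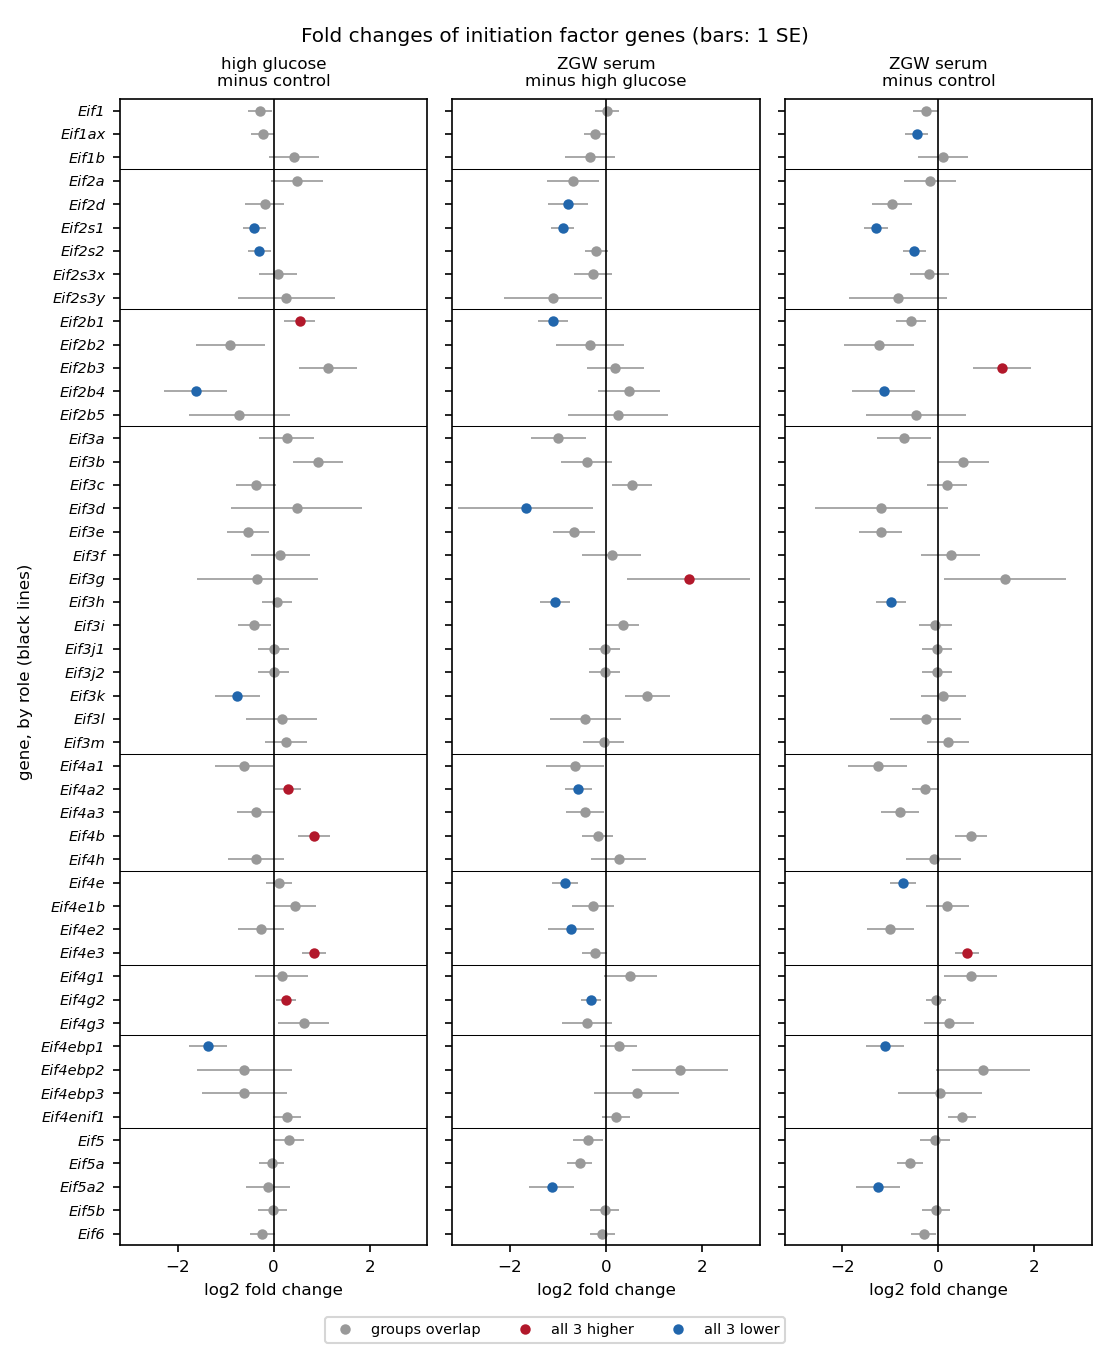
Log2 fold change (horizontal axes) of each initiation factor gene (vertical axis, by role) in the 3 comparisons, with bars of 1 SE from edgeR. Red and blue points mark genes whose 3 libraries were all above or all below those of the other group. The left panel has 5 red and 5 blue points, the middle panel 1 and 10, and the right panel 2 and 8.

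The next comparison set added serum against glucose alone, to ask what differed once loaded embryos also had serum. Here levels of the initiation factor genes leaned to lower values: 34 of 49 were lower and 15 higher with added serum, with a median log2 fold change of -0.26, beside 0.00 over all genes tested. The lower genes included those of eIF2 alpha (Eif2s1), eIF2B alpha (Eif2b1), eIF3h (Eif3h) and the cap-binding protein (Eif4e). No gene passed the edgeR quasi-likelihood test after Benjamini-Hochberg adjustment (0 of 49, beside 0% of all genes), and limma-voom called 0. DESeq2 called 1, Eif2s1 (DESeq2 adjusted p = 0.0126), where it called 1.42% of all genes. At an unadjusted edgeR p under 0.05 there were 5 of 49 (10.2%), all lower, beside 8.68% of all genes (3.8% higher and 4.89% lower). Libraries did not overlap between the groups for 10 genes that were lower (20.4%, beside 8.28% of all genes) and 1 that was higher (2.04%, beside 9.08%). Without serum replicate 3, the library with the lowest share of counts in these genes, 31 of 49 were lower and the median was -0.15. Control replicate 1 is in neither group of this comparison, so leaving it out as well (31 lower, median -0.15) is no separate check.

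By role, all 6 genes of eIF2, eIF2A and eIF2D were lower with added serum than with glucose alone, with a median of -0.73, and so were all 4 cap-binding genes (median -0.50) and all 5 genes of eIF5, eIF5A, eIF5B and eIF6 (median -0.38). All 4 genes of the eIF4E-binding proteins were higher, with a median of 0.45 and groups that overlapped in each. The eIF3 genes had 9 of 14 lower (median -0.04), the helicases and their helpers 4 of 5 (median -0.44) and the scaffolds 2 of 3 (median -0.32). The genes of eIF1 and eIF1A had 2 of 3 lower (median -0.22). Although Eif2b1 was lower, 3 of the 5 eIF2B genes were higher and 2 lower (median 0.19). None of these genes passed the edgeR test. Levels are relative to the library total, and in pooled embryos fewer cells and less RNA per cell cannot be told apart.

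Eif2s1 encodes the alpha subunit of eIF2, the target of the stress kinases, and lies at chr12:78861819-78887010 (GRCm38). Eif2s1 was at 153, 123 and 129.8 CPM in control libraries 1 to 3, 108, 107 and 93.4 CPM in those given glucose alone and 53.8, 52.1 and 59.3 CPM in those also given serum. Every control library was above every glucose library, and these were above every serum library. This order of the 3 groups without overlap was found in 1 of the 49 genes and in 30 of all tested genes (0.177%), and the reverse order in 0 of 49 and 0.0943%. The log2 fold change was -0.40 ± 0.24 for high glucose against control, -0.90 ± 0.24 for added serum against glucose alone and -1.30 ± 0.24 for added serum against control (edgeR adjusted p = 0.762, 0.401 and 0.338). By edgeR p-value the last of these ranked 7 among all 16964 genes, and DESeq2 called it (log2 fold change -1.33, DESeq2 adjusted p = 1.18e-05). Over the alternatives its adjusted p ran from 1.18e-05 to 0.726 in that comparison and from 0.0126 to 0.851 against glucose alone. Eif2s1 also had the smallest spread within groups of the 49 genes, 0.13 as the SD of log2(CPM + 0.5), and 8.49% of its stretches occur in other genes' transcripts. The beta subunit gene had the same order of means, but its glucose and serum libraries overlapped. Eif2s2 was at 719, 931 and 711 CPM in control libraries 1 to 3, 694, 682 and 548 CPM in those given glucose alone and 687, 474 and 509 CPM in those also given serum. Its control libraries were above the 6 others, the pattern of 2.05% of all genes given above, with a log2 fold change of -0.30 ± 0.24 for high glucose (edgeR adjusted p = 0.831).

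Eif2b1 was at 254, 224 and 208 CPM in control libraries 1 to 3, 397, 294 and 306 CPM in those given glucose alone and 222, 92.5 and 148 CPM in those also given serum. The glucose libraries were the 3 highest of the 9, and the log2 fold change for added serum against glucose alone was -1.11 ± 0.32 (edgeR adjusted p = 0.447). Eif2b1 encodes the regulatory alpha subunit of eIF2B, which senses phosphorylated eIF2. Eif4a2, a helicase gene, and Eif4g2 were also highest with glucose alone in every library, a pattern of 3 of the 49 genes and 1.8% of all tested genes. Eif4g2 was at 914, 938 and 980.3 CPM in control libraries 1 to 3, 1132, 1106 and 1155 CPM in those given glucose alone and 1002, 983 and 736 CPM in those also given serum. The log2 fold change of Eif4g2 for added serum against glucose alone was -0.32 ± 0.21 (edgeR adjusted p = 0.708).

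The serum libraries were the 3 lowest of the 9 for 4 genes, Eif2s1, Eif3h, Eif4e and Eif5a2, where 2.53% of all tested genes had this pattern, and for none of the 49 were they the 3 highest (3.32% of all genes). Eif4e was at 921, 756 and 848 CPM in control libraries 1 to 3, 1174, 792 and 749.9 CPM in those given glucose alone and 579.6, 358 and 572 CPM in those also given serum. Control and high glucose overlapped, and the log2 fold change of Eif4e, which binds the cap of messenger RNA, was -0.85 ± 0.27 against high glucose and -0.74 ± 0.27 against control (edgeR adjusted p = 0.465 and 0.439). Eif3h was at 96.6, 69.2 and 94.3 CPM in control libraries 1 to 3, 113, 83.6 and 76.2 CPM in those given glucose alone and 29.9, 47.9 and 53.1 CPM in those also given serum. For this eIF3 subunit the log2 fold change was -1.06 ± 0.32 against high glucose and -0.99 ± 0.32 against control (edgeR adjusted p = 0.451 and 0.409). Eif3h values are uncertain because of the shared stretches given above. Eif5a2 was at 53.2, 29.8 and 29.3 CPM in control libraries 1 to 3, 53.3, 27.1 and 22.8 CPM in those given glucose alone and 11.5, 20.5 and 14.9 CPM in those also given serum. Eif5a2 encodes a paralogue of eIF5A, the factor that carries hypusine and helps stalled ribosomes, and was named after its values were seen. Control replicate 1 and glucose replicate 1 were well above the rest of their groups, and the log2 fold change of Eif5a2 against high glucose was -1.14 ± 0.46 (edgeR adjusted p = 0.553). The main gene Eif5a was at 326 ± 50.1 CPM in control, 316 ± 58.5 CPM with glucose alone and 216 ± 51.2 CPM with added serum (SD, n = 3), and overlapped.

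**Figure D3:**
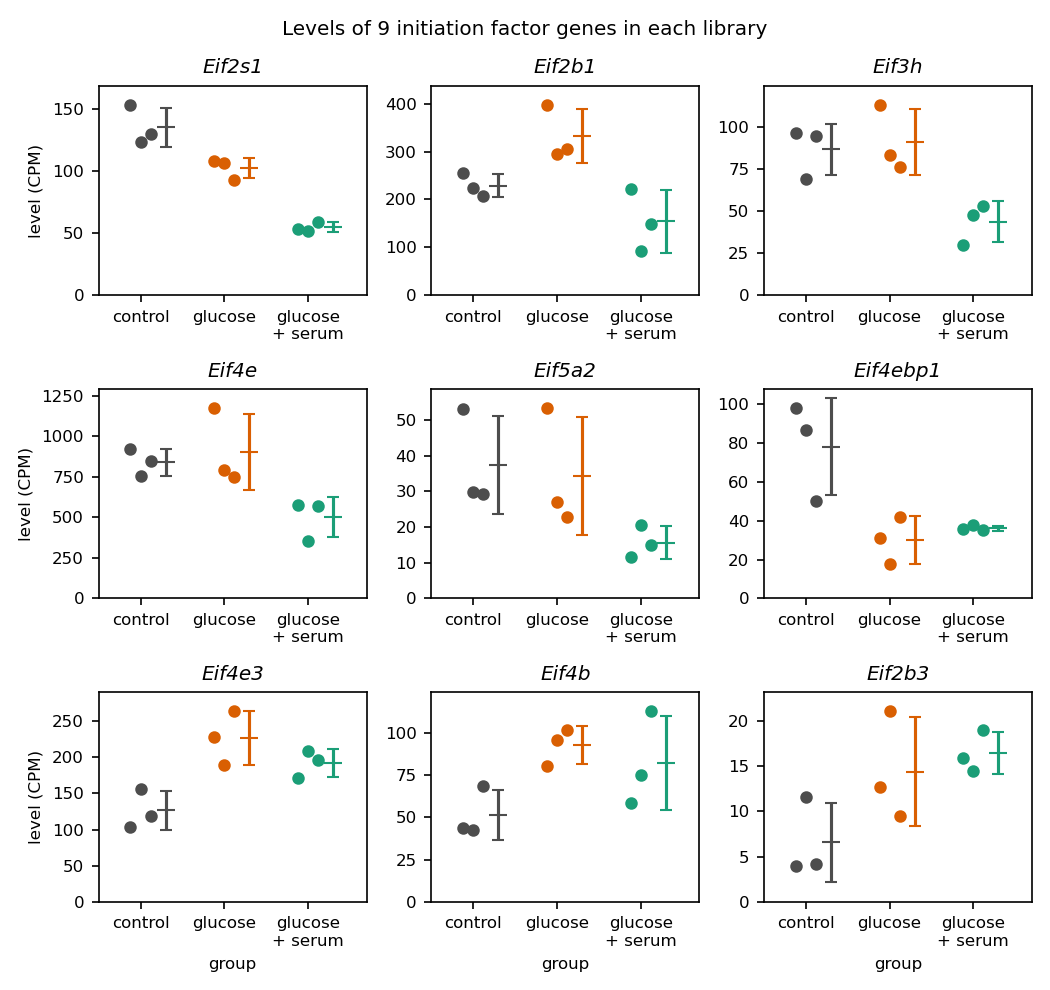
Level in CPM (vertical axes) of 9 initiation factor genes in each library, by group (horizontal axes). Points are libraries, and the bar beside them is the mean ± 1 SD (n = 3). Eif2s1 steps down from control to glucose alone to added serum without overlap, whereas Eif4ebp1 is lower and Eif4e3 higher in both glucose-loaded groups.

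Higher levels with added serum than with glucose alone were found for 15 genes, and the 4 of smallest p among those averaging 10 CPM or more were Eif3k, Eif3c, Eif3i and Eif4g1. Below that level, Eif4ebp2 (given above) and Eif3g had smaller p-values than the last 3 of these. Eif3k was at 86.4, 44.1 and 50.7 CPM in control libraries 1 to 3, 26.5, 38.4 and 42.5 CPM in those given glucose alone and 43.3, 37.5 and 114 CPM in those also given serum. The third serum library stood far above the other libraries of its group, and the log2 fold change of Eif3k for added serum against glucose alone, 0.86 ± 0.47 (edgeR adjusted p = 0.651), was 0.20 without it. All 3 libraries with glucose alone were below the controls for Eif3k, with a log2 fold change of -0.75 ± 0.47 (edgeR adjusted p = 0.771). Eif3i was at 545, 685 and 376 CPM in control libraries 1 to 3, 361, 436 and 415 CPM in those given glucose alone and 588, 268 and 683 CPM in those also given serum. The log2 fold change of Eif3i in the same comparison was 0.34 ± 0.35 (edgeR adjusted p = 0.83), and serum replicate 2 was the lowest of all 9 libraries. Eif3c was at 22.4, 19.2 and 31.4 CPM in control libraries 1 to 3, 14.4, 19.7 and 22.7 CPM in those given glucose alone and 22, 37.2 and 23.4 CPM in those also given serum. Those groups overlapped too (0.54 ± 0.41, edgeR adjusted p = 0.759). Eif4g1 was at 6.48, 12.2 and 17.3 CPM in control libraries 1 to 3, 14.7, 16.6 and 9.12 CPM in those given glucose alone and 11.9, 28.4 and 16.9 CPM in those also given serum. Its log2 fold change in this comparison was 0.50 ± 0.55 (edgeR adjusted p = 0.847) and 0.10 without serum replicate 2. The groups of Eif3i, Eif3c and Eif4g1 overlapped in all 3 comparisons. The 1 gene whose serum libraries were all above the high glucose ones, Eif3g, was near the lower end of detection at 3.25 ± 1.81 CPM with glucose alone and 10.8 ± 5.74 CPM with added serum (SD, n = 3), and had no count in control replicate 3.

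Added serum was then set against control, to ask how far embryos with both treatments stood from the control embryos. Of the 49 genes 33 were lower and 16 higher, with a median log2 fold change of -0.19, beside 0.00 over all genes tested. The median was -0.33 without control replicate 1, -0.33 without serum replicate 2 and -0.10 by limma-voom. The edgeR quasi-likelihood test, adjusted by Benjamini-Hochberg, called 0 of 49 genes (0% of all genes), limma-voom 0 and DESeq2 1, again Eif2s1, where DESeq2 called 2.05% of all genes. At an unadjusted edgeR p under 0.05 there were 9 of 49 (18.4%), beside 9.86% of all genes, and 8 of them were lower and 1, Eif4e3, higher (5.65% and 4.21% of all genes). The groups did not overlap for 8 lower genes (16.3%, beside 7.32% of all genes) and 2 higher genes (4.08%, beside 9.02%). This comparison shares its control libraries with the first and its serum libraries with the second, so the 3 sets of values are not independent.

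The remaining genes named for their level or role did not pass the test in any comparison. Eif1 was at 2771, 2449 and 1669.5 CPM in control libraries 1 to 3, 2306, 1807 and 1534 CPM in those given glucose alone and 2154, 1681 and 1902 CPM in those also given serum. The groups overlapped, and the log2 fold change of Eif1 for high glucose was -0.29 ± 0.26 (edgeR adjusted p = 0.856). Eif1ax was at 263, 214 and 205 CPM in control libraries 1 to 3, 217, 178 and 186 CPM in those given glucose alone and 141, 202 and 156 CPM in those also given serum. Eif1ax, the X-linked gene of the scanning factor eIF1A, had its serum libraries below the control ones, with a log2 fold change of -0.45 ± 0.24 (edgeR adjusted p = 0.573). Eif5 was at 256, 358 and 563 CPM in control libraries 1 to 3, 459.8, 531 and 475 CPM in those given glucose alone and 356, 486 and 282 CPM in those also given serum. Control replicate 3 was the highest library for Eif5, whose protein triggers GTP hydrolysis by eIF2, and the log2 fold change for added serum against glucose alone was -0.38 ± 0.31 (edgeR adjusted p = 0.781). Eif6 was at 150.4, 125 and 96.2 CPM in control libraries 1 to 3, 97.7, 127 and 90.8 CPM in those given glucose alone and 109, 100.03 and 91 CPM in those also given serum. The groups of Eif6, which keeps the large ribosomal subunit from joining too early, overlapped, with -0.31 ± 0.27 for added serum against control (edgeR adjusted p = 0.742). The spread within groups fell with level: its median was 0.98 for the 7 genes under 10 CPM, 0.55 for the 28 from 10 to 100 CPM and 0.31 for the 14 above, as the SD of log2(CPM + 0.5). For all tested genes these medians were 0.92, 0.62 and 0.39.

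**Figure D4:**
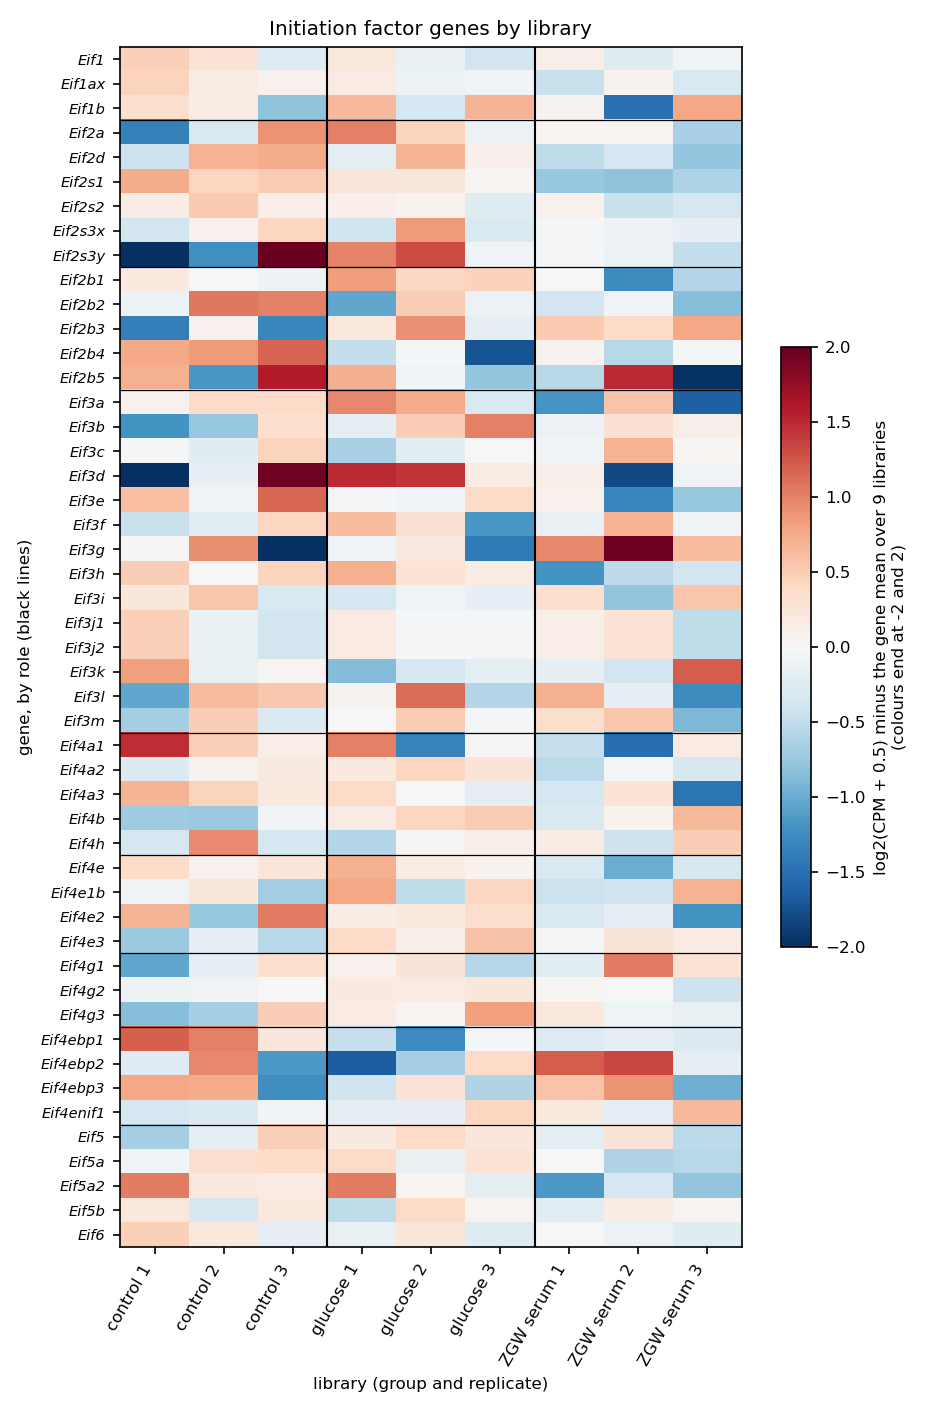
Level of each initiation factor gene (vertical axis, by role) in each of the 9 libraries (horizontal axis), as log2(CPM + 0.5) minus the gene's mean over the libraries. Red is above and blue below the mean, and the column medians are 0.02, 0.08 and 0.19 in control, 0.17, 0.17 and -0.02 with glucose alone and -0.04, -0.10 and -0.30 with added serum.

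Other genes of the pathway were taken from 5 lists, 60 symbols in all that had rows, of which 59 were tested. None passed the edgeR test over all genes in any comparison. The list of eIF2 alpha kinases, the phosphatase subunits and their stress targets had 5 of 11 genes higher with glucose than in control, and 3 of 11 higher with added serum than with glucose alone. The stress transcription factor Atf4 was at 106 ± 25.4 CPM in control, 76.9 ± 23.4 CPM with glucose alone and 84.7 ± 18.1 CPM with added serum, and its target Ddit3 at 45.7 ± 20.3 CPM, 42.9 ± 10.7 CPM and 42.8 ± 14.3 CPM (SD, n = 3). Both were named after their values were seen. The mTORC1 list had 4 of 13 higher with glucose alone, and 5 of 13 higher with added serum than with glucose alone. Its kinase genes Mknk1 and Mknk2, whose proteins phosphorylate eIF4E, differed in direction, with log2 fold changes for high glucose of 1.34 ± 0.63 and -0.96 ± 0.52 (edgeR adjusted p = 0.693 and 0.723).

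In the list of poly(A)-binding and repressor genes, 6 of 15 were higher with glucose alone and 6 of 15 higher with added serum than with glucose alone. Paip1 was at 3361, 3567 and 2365 CPM in control libraries 1 to 3, 2279.9, 1711 and 1230.2 CPM in those given glucose alone and 566, 421 and 555 CPM in those also given serum. Paip1 encodes a partner of poly(A)-binding protein and eIF4A, and it had the same falling order of groups as Eif2s1, with a log2 fold change of -2.59 ± 0.29 for added serum against control (edgeR adjusted p = 0.0511). Its other log2 fold changes were -0.83 ± 0.28 for high glucose against control and -1.76 ± 0.28 for added serum against glucose alone (edgeR adjusted p = 0.627 and 0.37). Lsm14a, a repressor of stored messenger RNA, had a log2 fold change of 0.73 ± 0.25 for high glucose (edgeR adjusted p = 0.627), Ybx2 of 0.63 ± 0.37 for added serum against glucose alone (edgeR adjusted p = 0.678) and Paip2b of 0.79 ± 0.29 for added serum against control (edgeR adjusted p = 0.439). Elongation and release factors had 6 of 11 higher in each of the first 2 comparisons. Eef1g, a subunit of the elongation factor that recharges eEF1A, was at 10.7 ± 5.14 CPM in control, 10.8 ± 2.98 CPM with glucose alone and 1.59 ± 1.2 CPM with added serum (SD, n = 3). For Eef1g the log2 fold change was -2.74 ± 0.84 for added serum against glucose alone and -2.73 ± 0.84 against control (edgeR adjusted p = 0.465 and 0.403). Eef1b2, another subunit of it, had a log2 fold change of 0.82 ± 0.40 for added serum against glucose alone (edgeR adjusted p = 0.592). The kinase gene Eif2ak4, which senses uncharged transfer RNA, was at 20.0, 31.8 and 58.2 CPM in control and 65.4, 69.6 and 123 CPM with added serum. Its log2 fold change was 1.23 ± 0.44 (edgeR adjusted p = 0.439). For added serum against control, however, 9 of the 11 genes in its list were lower (81.8%, beside 50% of all genes). Among these lower genes, the kinase gene Eif2ak2 had the smallest p, with a log2 fold change of -4.85 ± 2.09 (edgeR adjusted p = 0.484). Eif2ak2 was scarce, at 0.0728, 0.0744 and 6.42 CPM in control and 0, 0.106 and 0.0887 CPM with added serum, and these groups overlapped. The kinase gene Eif2ak3 had a log2 fold change of -0.97 ± 0.47 (edgeR adjusted p = 0.532). The list of other initiation and recycling helpers had 4 of 9 higher in each of the first 2 comparisons, and 5 of 9 higher with added serum than in control. In that last comparison 2 of 9 had an unadjusted edgeR p under 0.05 (22.2%, beside 9.86% of all genes). Both were lower: Denr at -1.17 ± 0.41 and Bzw1 at -0.97 ± 0.43 (edgeR adjusted p = 0.439 and 0.494).

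Marker sums differed between the groups as well. The summed level of the 9 measured 2-cell markers ran from 4051 to 10694 CPM in control, from 6875 to 13898 with glucose alone and from 1925 to 4801 with added serum. Most of this sum came from the Zscan4 genes Zscan4c, Zscan4d and Zscan4f, at 1964 ± 1176, 1812 ± 938 and 2118 ± 1255 CPM in control (SD, n = 3). The summed level of the 8 oocyte markers ran from 4773 to 5232 CPM in control, from 4236 to 5024 with glucose alone and from 5705 to 8305 with added serum. Most of the oocyte sum was Oosp1, at 3544 ± 179.8 CPM in control, 2544 ± 229.8 CPM with glucose alone and 4710.4 ± 709 CPM with added serum (SD, n = 3). Of the 8 oocyte markers 5 were lower with added serum than with glucose alone (median log2 fold change -0.04), among them Gdf9 at -0.74 ± 0.31 and Zp2 at -0.56 ± 0.33 (edgeR adjusted p = 0.565 and 0.672), while all 9 of the 2-cell markers were lower (median -1.38). None of these 17 genes was at 0 in a group. The 8 blood markers summed to 234 to 357 CPM in control, 89.8 to 306 with glucose alone and 323 to 532 with added serum, with Ptprc at 0 in the first 2 groups and Alas2 at 0 with glucose alone. Nearly all of that sum came from Hba-a1 and Hba-a2, whose counts are identical in the 9 libraries, so that 1 unseparated signal was added for both (each 143 ± 29.98 CPM in control, 111 ± 61.7 CPM with glucose alone and 204 ± 55.9 CPM with added serum). Hbb-bs and Hbb-bt had 16 and 13 counts over all libraries. The 12 markers of cumulus and granulosa cells summed to 24.9 to 47.0 CPM over all libraries, with Ptx3 at 0 in control and Fshr at 0 with added serum. The largest parts of this sum were Nr5a2 and Amhr2, at means of 19.1 and 7.54 CPM over the 9 libraries, while Fshr, Foxl2 and Inha averaged 0.174, 0.106 and 0.199 CPM. The part of any of these in the levels of the initiation factor genes was not tested.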

How the data were processed

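The authors deposited raw counts by gene symbol for 9 libraries, each of 3 pooled embryos per the labels' protocols. The submitters' processing notes name Trim Galore and the build mm10. For the aligner, the counter and its strand setting, the annotation and reads of several matches, the source is "not given in the sources used here", so genes with near copies are uncertain. Labels gave each library its group and replicate. The genes described, the gene lists and the motifs were chosen with earlier results of these data known.

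edgeR 4.0.16 (R 4.3.3) was run on the counts of all 9 libraries in 1 fit, with TMM factors, its filter at a minimum count of 10, robust quasi-likelihood tests, and Benjamini-Hochberg adjustment over the 16964 genes tested, at a threshold of 0.05. Standard errors are the log2 fold change divided by the root of the F statistic. CPM were computed from all counts of a library. No set test and no p over the list was used. Genes printed in full were, in each comparison, the 4 higher and 4 lower of smallest p among those averaging 10 CPM or more, the 6 of highest level, and 10 set by role. For those set by level or role, the comparison of smallest p is given. Of the pathway lists, only some of the genes of smallest p were named. Others of small p, among them Eef1a1, Cpeb4, Rptor and Mtor, are given no values here. Positions, transcript lengths and shared stretches came from GENCODE M21 on GRCm38, and promoter sequences from RefSeq (GRCm38.p6). The test was checked on simulated data, with planted changes larger than any fold change given here. How well it finds changes of the sizes given here was not checked. Alternatives were RLE factors, DESeq2 1.42.0, limma-voom (limma 3.58.1), no filter, a filter of 10 counts in 6 libraries, fits of 2 groups, the replicate number as a block, and leaving out libraries.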

Additional observations from a re-analysis of the deposited data

How the results depend on the processing

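Every one of the 31 fold changes printed by the rule for named genes kept its direction in its 17 alternatives. By DESeq2 the count of initiation factor genes called went from 0 to 1 for added serum against glucose alone and from 0 to 1 for added serum against control, in both cases Eif2s1, and it was 0 in all other alternatives and for glucose against control. DESeq2 called 129, 241 and 348 of all genes in the 3 comparisons where edgeR called 0.

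Leaving out 1 library at a time moved the median log2 fold change of the 49 genes from 0.00 to between -0.12 and 0.048 for high glucose against control, from -0.26 to between -0.31 and -0.15 for added serum against glucose alone, and from -0.19 to between -0.33 and -0.17 for added serum against control. It was -0.15 in the second of these with control replicate 1 and serum replicate 3 both left out, though the control library is in neither group of that comparison. With the 10 most counted genes of a library out of the denominator, the share of counts in these genes was 1.01% in control, 0.967% with glucose alone and 0.901% with added serum. Leaving out 1 library of a group gave shares of 0.832% to 0.891% in control, 0.82% to 0.879% with glucose alone and 0.709% to 0.778% with added serum.

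With the replicate block the medians were 0.03, -0.23 and -0.16 and no gene was called. The numbers are not known to pair the samples. Correlations of same-numbered libraries, after removal of group means, ran from -0.005 to 0.117. Among libraries of the other groups, 6 of 9 libraries correlated best with one of their own number. That is more than equal odds would give on average, and whether the numbers mark a batch was not tested. Low counts limit the 7 genes under 10 CPM most.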

Other observations

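The gamma subunit of eIF2 has an X-linked gene, Eif2s3x, and a Y-linked one, Eif2s3y, which only male embryos carry. Eif2s3y was at 1.02, 2.75 and 29.4 CPM in controls 1 to 3, 14.7, 18.4 and 6.76 CPM with glucose alone and 6.93, 6.53 and 4.97 CPM with added serum. Control replicates 1 and 2 were the lowest and control replicate 3 the highest of the 9 libraries. Uty, another Y-linked gene, was at 2.62, 1.12 and 8.03 CPM in controls 1 to 3, 3.63, 5.84 and 1.79 CPM with glucose alone and 4.02, 6.1 and 3.82 CPM with added serum. Its highest library was control replicate 3 and its lowest control replicate 2. Kdm5d, also Y-linked, was at 0.728, 0.298 and 4.09 CPM in controls 1 to 3, 0.907, 0.231 and 0.0814 CPM with glucose alone and 0.551, 0.159 and 0.177 CPM with added serum, with control replicate 3 the highest and glucose replicate 3 the lowest. Ddx3y did not have that order, at 0.291, 0.149 and 0.365 CPM in controls 1 to 3, 0.0755, 2 and 0.163 CPM with glucose alone and 0.63, 0.902 and 1.24 CPM with added serum, with glucose replicate 2 the highest and glucose replicate 1 the lowest. The X-linked Eif2s3x was at 47.1 ± 12.6 CPM in control, 50.02 ± 26.3 CPM with glucose alone and 41.3 ± 1.88 CPM with added serum (SD, n = 3). The labels do not give the sex of the pooled embryos.

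Extreme values were spread over most libraries. Control replicates 1, 2 and 3 were the highest of the 9 libraries for 9, 4 and 8 of the 49 genes and the lowest for 10, 1 and 3. Glucose replicates 1, 2 and 3 were the highest for 8, 5 and 4 and the lowest for 7, 1 and 4. Serum replicates 1, 2 and 3 were the highest for 0, 7 and 4 and the lowest for 4, 9 and 10. Within the serum group, Eif1b was at 245, 81.9 and 399 CPM, Eif3i at 588, 268 and 683 CPM and Eif3k at 43.3, 37.5 and 114 CPM in replicates 1, 2 and 3. For these 3 genes replicate 2 was the lowest and replicate 3 the highest. Eif4a3, a helicase of the exon junction complex, had the opposite order, at 68.9, 106 and 31.6 CPM.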
